A study of Mus musculus with 12 samples.

Results

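The Kruppel-like factor (Klf) genes described here are Klf2, Klf3, Klf4, Klf5, Klf6, Klf7, Klf9, Klf10, Klf13 and Klf16, selected by gene symbol. They are 10 of the 17576 genes measured by RNA sequencing of total RNA in C18-4 cells, an established mouse line of spermatogonial stem cell origin. The libraries fall into 4 groups of 3: 8276OV received virus for overexpression of the long noncoding RNA lncRNA8276, 8276KD received virus for its inhibition, and 5NC and 3NC are the remaining groups, whose abbreviations the labels do not spell out. The design text lists 5NC beside overexpression and 3NC beside knockdown, so 8276OV was set against 5NC and 8276KD against 3NC, as control viruses. All 12 libraries carry the same strain label, IRC mouse, and no promoter, viral titre or cell clone is given. The level of lncRNA8276 was not analysed here, and nothing in the files was used to check which libraries carry more or less of it.

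Kruppel-like factors are DNA-binding proteins with zinc fingers at the carboxyl end that bind GC-rich and CACCC sequences. The family is divided by what the amino-terminal part recruits. Klf2, Klf4, Klf5, Klf6 and Klf7 can bind acetyltransferases and often activate their targets. Klf3 recruits the corepressor CtBP, and Klf9, Klf10, Klf13 and Klf16 bind the corepressor Sin3A. Several members are immediate or early response genes whose RNA follows serum, stress and hormone signals, and Klf4 and Klf2 belong to the pluripotency circuit of mouse embryonic stem cells.

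Promoters are shown for the 4 members with the widest differences in level between groups. Each window runs from 250 bases before to 50 bases after the annotated gene start (RefSeq, GRCm38.p6) and is written 5′ to 3′ on the strand of the gene. Capitals mark the GC box GGGCGG and the CACC box CACCC on either strand, the classes of sequence that the factors themselves bind. Klf2 is at chr8:72318812-72319111 on the plus strand, Klf6 at chr13:5861239-5861538 on the plus strand, Klf3 at chr5:64803271-64803570 on the plus strand, and Klf4 at chr4:55532426-55532725 on the minus strand.
Klf2: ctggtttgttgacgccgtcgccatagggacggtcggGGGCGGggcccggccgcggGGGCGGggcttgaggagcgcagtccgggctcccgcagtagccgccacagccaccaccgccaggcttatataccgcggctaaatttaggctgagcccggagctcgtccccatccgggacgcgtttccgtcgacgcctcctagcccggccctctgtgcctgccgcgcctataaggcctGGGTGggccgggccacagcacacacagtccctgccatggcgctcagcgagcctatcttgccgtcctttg
Klf6: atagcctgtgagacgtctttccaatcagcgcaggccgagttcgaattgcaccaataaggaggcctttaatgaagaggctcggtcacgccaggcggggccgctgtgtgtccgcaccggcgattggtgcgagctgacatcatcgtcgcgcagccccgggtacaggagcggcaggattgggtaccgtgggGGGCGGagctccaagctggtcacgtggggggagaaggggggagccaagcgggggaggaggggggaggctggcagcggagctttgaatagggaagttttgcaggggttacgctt
Klf3: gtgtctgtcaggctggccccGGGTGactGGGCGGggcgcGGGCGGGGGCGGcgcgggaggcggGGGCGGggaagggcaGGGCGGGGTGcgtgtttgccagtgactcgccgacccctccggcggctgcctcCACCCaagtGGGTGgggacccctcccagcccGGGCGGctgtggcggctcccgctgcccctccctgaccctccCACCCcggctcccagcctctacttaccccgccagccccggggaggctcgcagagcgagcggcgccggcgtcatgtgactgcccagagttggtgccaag
Klf4: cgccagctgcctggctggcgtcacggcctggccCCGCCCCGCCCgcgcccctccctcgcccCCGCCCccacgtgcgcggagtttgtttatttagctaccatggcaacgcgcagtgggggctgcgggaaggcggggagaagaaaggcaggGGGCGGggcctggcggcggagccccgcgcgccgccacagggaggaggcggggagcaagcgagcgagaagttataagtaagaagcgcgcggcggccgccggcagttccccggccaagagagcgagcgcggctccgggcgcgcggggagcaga

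The Klf3 window held 6 GC boxes and 5 CACC boxes, the most of the 4. In it, 1 GC box and 1 CACC box share a single base. The Klf4 window held 4 GC boxes, of which 2 overlap by 1 base, and no CACC box. Klf2 had 2 GC boxes and 1 CACC box, and Klf6 had 1 GC box. Promoter windows were found for 7 of the 10 members, the other named windows being those of Klf7, Klf9 and Klf13. The Klf7 window, chr1:64121340-64121639 on the minus strand, lies inside the gene span listed below and not at its end. Of these 7, 6 held GGGCGG, against 35.7% of all 32851 mouse promoter windows of the same length, and 5 held CACCC, against 57.5%. The E-box CACGTG was found in 2 windows, those of Klf4 and Klf6, against 7.15% of all. The letters TGACTCA (5.2% of all), TGACGTCA (1.79%) and the CArG box (1.63%) were in none of the 7. The GC content of the windows ranged from 58.3% to 76.7%, against a median of 52.7% over all promoters, and GC-rich letters match more often in such windows. These matches describe the letters of the windows, not binding.

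**Figure D1:**
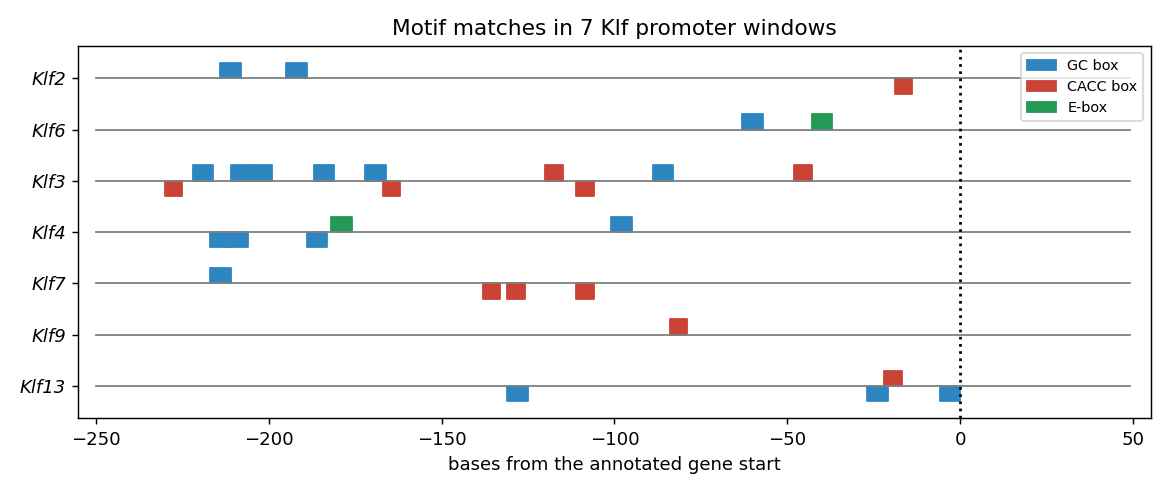
Motif matches in the promoter windows of 7 Klf genes, by distance in bases from the annotated gene start (0, dotted line). For Klf7 the start used lies inside the gene span given in the text. Boxes above a line are on the gene's strand and boxes below it on the other strand. Blue is the GC box, red the CACC box and green the palindromic E-box. Klf3 has 6 GC boxes and 5 CACC boxes, and Klf9 has 1 CACC box only.

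The other members lie at chr14:99298691-99313412 (Klf5), chr1:64029448-64122345 (Klf7), chr19:23141226-23168129 (Klf9), chr15:38291464-38300711 (Klf10), chr7:63886351-63938915 (Klf13) and chr10:80567121-80577296 (Klf16). The family is thus spread over 10 chromosomes.

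All libraries were of similar depth, at roughly 10.8 M to 12.4 M fragments as implied by the lowest values, with 10929 to 11165 genes at a level of at least 1 FPKM. FPKM, fragments scaled by transcript length and library size, is how the deposited values were read. Correlation of log2 values was 0.993 to 0.998 within groups and 0.951 to 0.988 between them. Of 11 markers of undifferentiated spermatogonia and germ cells, 9 were below 1 FPKM in all 12 libraries, among them Gfra1, Dazl and Ddx4. The other 2 went the other way, Etv5 at 2.26 to 7.89 FPKM and Id4 at 0.46 to 2.09 FPKM. All 6 markers of surface epithelium and mesothelium were at or above 1 FPKM in every library. Most of these markers go against a germ cell identity, and the cells are called C18-4 cells throughout. Libraries of 8276OV stood apart in base composition. The change in log2 level per 10 points of transcript GC content was -0.46, -0.237 and -0.354 in the 8276OV libraries, -0.0405 to 0.184 in 8276KD, 0.148 to 0.198 in 5NC and 0.103 to 0.15 in 3NC. The Klf differences that involve 8276OV are therefore given as deposited and after removal of the trend with GC content.

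All 10 Klf genes passed the filter of at least 1 FPKM in at least 3 libraries, and all exceeded 2 FPKM in each of the 12. Klf6 was the most abundant of the 10 per transcript length, with a mean of 50.7 FPKM over the 12 libraries, followed by Klf10 at 34.9 FPKM and Klf3 at 28.9 FPKM. Klf16 averaged 14.5, Klf2 9.31, Klf9 8.54, Klf5 6.88, Klf4 6.35, Klf7 3.23 and Klf13 3.16 FPKM. The depth implies between 86 fragments, for the lowest Klf4 library, and 4442, for the highest Klf6 library, behind a single value. In bulk RNA, fewer cells that express a gene and less of its RNA per cell cannot be told apart.

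**Figure D2:**
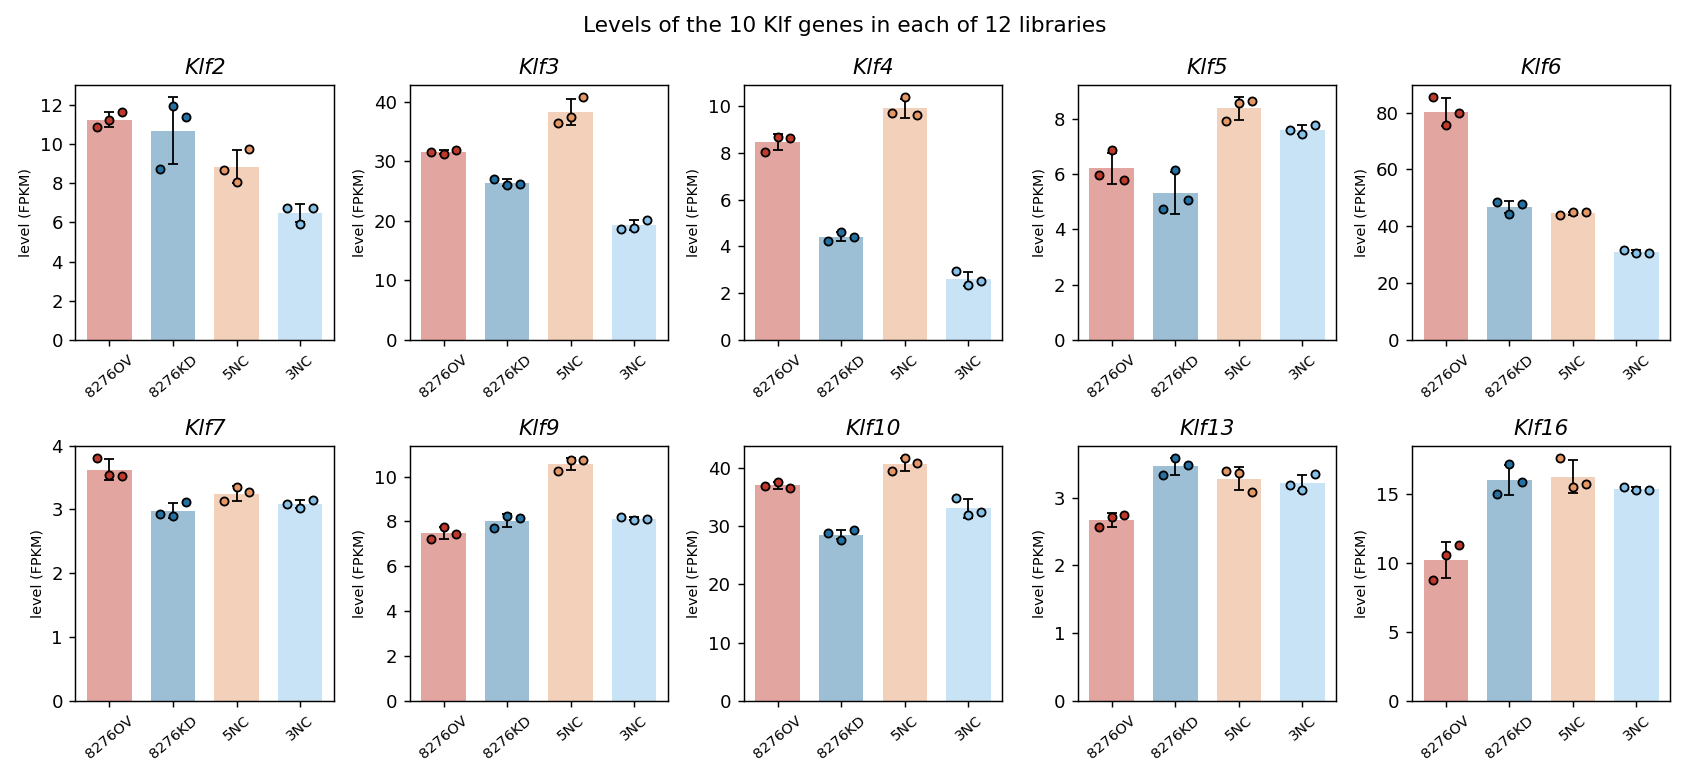
Levels of the 10 Klf genes (FPKM, linear axes from 0, a separate scale for each gene) in 8276OV, 8276KD, 5NC and 3NC. Points are libraries, bars are means and error bars are SDs of 3 libraries. The 8276OV libraries are the highest for Klf6 (75.58 to 85.47 FPKM), the 5NC libraries for Klf4 (9.65 to 10.4 FPKM), and the 3NC libraries are the lowest for Klf2, Klf3, Klf4 and Klf6.

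Among the acetyltransferase-binding members, Klf6, a growth-regulating and injury-responsive factor, was highest with overexpression. It measured 85.47, 75.58 and 79.7 FPKM in 8276OV, 48.4, 44.48 and 47.85 in 8276KD, 44.02, 44.89 and 44.85 in 5NC, and 31.58, 30.75 and 30.62 in 3NC. All 3 libraries of 8276OV were above the other 9 and all 3 of 3NC below the other 9, while 8276KD and 5NC overlapped. Klf6 was 1.8-fold higher in 8276OV than in 5NC, a log2 fold change of 0.83 ± 0.0502 (limma standard error; adjusted p = 6.03e-08). It was 1.51-fold higher in 8276KD than in 3NC (0.58 ± 0.0502; adjusted p = 1.6e-06), so Klf6 was higher with each manipulation than with its own control. After GC correction its difference between 8276OV and 5NC was 0.55 ± 0.0308 and still called.

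Klf2, a flow-responsive factor of endothelium that also maintains quiescence of lymphocytes, followed the same order of group means. Its levels were 10.86, 11.24 and 11.65 FPKM in 8276OV, 8.72, 11.94 and 11.39 in 8276KD, 8.69, 8.08 and 9.76 in 5NC, and 6.76, 5.93 and 6.75 in 3NC. The 3NC libraries were below all others, and the first 8276KD library lay well under its 2 companions and within the range of 5NC. Klf2 was higher in 8276KD than in 3NC by 0.63 ± 0.0977 (adjusted p = 0.000212, ratio of means 1.65) and higher in 8276OV than in 5NC by 0.32 ± 0.0977 (adjusted p = 0.00932, ratio 1.27). Klf2 has the most GC-rich transcript of the 10, at 61.6%. Genes of that GC content had a median log2 change of -0.66 between 8276OV and 5NC, and after GC correction the Klf2 difference was 1.05 ± 0.082. Between 8276KD and 5NC its log2 difference of 0.24 ± 0.0977 did not pass (adjusted p = 0.0514), but did without the first 8276KD library (0.37) or without the third 5NC library (0.31), and under quantile normalization (0.31). After GC correction this difference was called at 0.44.

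Klf4, a pluripotency and epithelial differentiation factor, had the widest range of the family. It measured 8.06, 8.68 and 8.66 FPKM in 8276OV, 4.25, 4.61 and 4.41 in 8276KD, 9.73, 10.4 and 9.65 in 5NC, and 2.93, 2.35 and 2.52 in 3NC. No group overlapped another. The largest difference was between the control viruses, 3.82-fold higher in 5NC than in 3NC (1.60 ± 0.0679; adjusted p = 4.26e-10). Klf4 was 1.7-fold higher in 8276KD than in 3NC (0.59 ± 0.0679; adjusted p = 1.9e-05). In 8276OV it was 0.853 times the 5NC mean, a log2 difference of -0.21 ± 0.0679 (adjusted p = 0.0136). That last call was lost without the first 8276OV library or the second 5NC library (-0.18 in each case) and under quantile normalization (-0.058), and after GC correction the difference was 0.19 ± 0.0618 in the opposite direction and called. The direction of Klf4 between 8276OV and 5NC thus depends on the treatment of GC content, while that between 5NC and 3NC was 1.54 ± 0.0618 after correction.

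Klf5, a proliferation-promoting factor of epithelial progenitors, was lower with either manipulation. Its levels were 5.96, 6.86 and 5.8 FPKM in 8276OV, 4.73, 6.16 and 5.06 in 8276KD, 7.91, 8.57 and 8.66 in 5NC, and 7.59, 7.46 and 7.78 in 3NC. Every library of 8276OV and of 8276KD was below every library of 5NC and 3NC. Klf5 fell by 0.38 on the log2 scale in 8276OV against 5NC (SE 0.0823; adjusted p = 0.00084) and by 0.45 in 8276KD against 3NC (SE 0.0823; adjusted p = 0.000773). GC correction gave -0.42 and -0.46, both called, and quantile normalization gave -0.21 for 8276OV against 5NC, also called. The control viruses did not overlap for Klf5, but their difference of 0.12 ± 0.0823 did not pass (adjusted p = 0.221).

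Klf7, a regulator of neuronal and adipocyte genes, had the narrowest span of group means of the 10, 0.22 on the log2 scale. It measured 3.81, 3.54 and 3.53 FPKM in 8276OV, 2.93, 2.89 and 3.11 in 8276KD, 3.13, 3.35 and 3.27 in 5NC, and 3.08, 3.02 and 3.15 in 3NC. The 8276OV libraries were above the other 9. The difference from 5NC, 0.12 ± 0.0593, did not pass (adjusted p = 0.0768) as deposited, was called under quantile normalization (0.28), and was -0.053 ± 0.0562 after GC correction.

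Klf3, the CtBP-binding repressor, separated all 4 groups. Its levels were 31.55, 31.33 and 31.88 FPKM in 8276OV, 27.1, 26.01 and 26.18 in 8276KD, 36.55, 37.53 and 40.83 in 5NC, and 18.65, 18.89 and 20.24 in 3NC. The order of its groups, 5NC, then 8276OV, then 8276KD, then 3NC, is that of Klf4. Klf3 was 1.99-fold higher in 5NC than in 3NC (0.96 ± 0.0509; adjusted p = 3.75e-09). It was 1.37-fold higher in 8276KD than in 3NC (0.44 ± 0.0509; adjusted p = 2.21e-05) and lower in 8276OV than in 5NC, at 0.825 times the mean (-0.27 ± 0.0509; adjusted p = 0.000307). GC correction left these at 0.94, 0.41 and -0.43, all called.

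Of the Sin3A-binding members, Klf9, a glucocorticoid and thyroid hormone target, was set apart by 5NC. It measured 7.22, 7.75 and 7.43 FPKM in 8276OV, 7.69, 8.24 and 8.16 in 8276KD, 10.24, 10.72 and 10.72 in 5NC, and 8.2, 8.06 and 8.09 in 3NC. The 5NC libraries were above the other 9, and 8276KD overlapped both 8276OV and 3NC. Klf9 was lower in 8276OV than in 5NC (-0.45 ± 0.0517; adjusted p = 4.83e-06), also after GC correction (-0.51) and quantile normalization (-0.29). Between 8276KD and 3NC the difference was -0.014 ± 0.0517 (adjusted p = 0.852), an amount smaller than its standard error.

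Klf10, an early response gene of transforming growth factor beta, was high in 5NC and low in 8276KD. Its levels were 36.96, 37.7 and 36.57 FPKM in 8276OV, 28.8, 27.65 and 29.32 in 8276KD, 39.45, 41.7 and 40.82 in 5NC, and 34.89, 31.92 and 32.46 in 3NC. No groups overlapped. It was lower in 8276KD than in 3NC (-0.20 ± 0.0467; adjusted p = 0.00377) and lower in 8276OV than in 5NC (-0.13 ± 0.0467; adjusted p = 0.0223). The second of these calls was lost without the third 8276OV library (-0.12), the second 5NC library (-0.11) or the third 5NC library (-0.13), and under quantile normalization (-0.065), and it was -0.22 ± 0.0393 and called after GC correction. Klf10 was higher in 5NC than in 3NC by 0.29 ± 0.0467 (adjusted p = 0.000143).

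Klf13 and Klf16, which bind GC-rich promoter elements and have GC-rich transcripts (55.5% and 60.4%), were low in 8276OV. Klf16 measured 8.77, 10.57 and 11.29 FPKM in 8276OV, 15.02, 17.2 and 15.89 in 8276KD, 17.62, 15.47 and 15.7 in 5NC, and 15.51, 15.26 and 15.29 in 3NC. Klf13 measured 2.56, 2.71 and 2.74 FPKM in 8276OV, 3.33, 3.58 and 3.48 in 8276KD, 3.4, 3.37 and 3.08 in 5NC, and 3.19, 3.11 and 3.35 in 3NC. For both genes the 8276OV libraries lay below the other 9. As deposited, Klf16 was lower in 8276OV than in 5NC by a log2 difference of -0.63 ± 0.0807 (adjusted p = 1.19e-05) and Klf13 by -0.22 ± 0.0614 (adjusted p = 0.00489). Genes of like GC content had median changes of -0.66 and -0.41. After GC correction the Klf16 difference was 0.068 ± 0.0578 and not called, and that of Klf13 was 0.23 ± 0.0624 in the opposite direction and called. Under quantile normalization the Klf13 difference was -0.069 and not called. For both genes, 8276KD against 3NC did not pass (0.057 ± 0.0807 for Klf16, 0.082 ± 0.0614 for Klf13), though Klf16 was called at 0.16 after GC correction.

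As a family, with 8276OV set against 5NC as deposited, Klf2 and Klf6 were higher, 7 members were lower and Klf7 did not pass. Of all 11360 genes tested, 74.4% were called in this comparison, 30.3% higher and 44.1% lower, so that a count of 9 of 10 is near the background. The median log2 fold change was -0.21 over the 10 members and -0.088 over all genes. After GC correction, 4 members were higher and 4 lower, against 54.7% of 11248 genes called, 27.8% higher and 26.9% lower. Of the 9 calls, 6 kept their call and sign (Klf2, Klf3, Klf5, Klf6, Klf9 and Klf10), 2 were called in the opposite direction (Klf4 and Klf13) and that of Klf16 was lost. Quantile normalization moved the median of all genes to 0.029 and gave 3 members higher and 4 lower, against 74.2% of genes called, 39.0% higher and 35.2% lower. The 8276OV libraries were all above the 5NC libraries for 3 members (32.0% of all genes) and all below for 7 (45.6%), so that all 10 separated, against 77.6% of all genes.

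**Figure D3:**
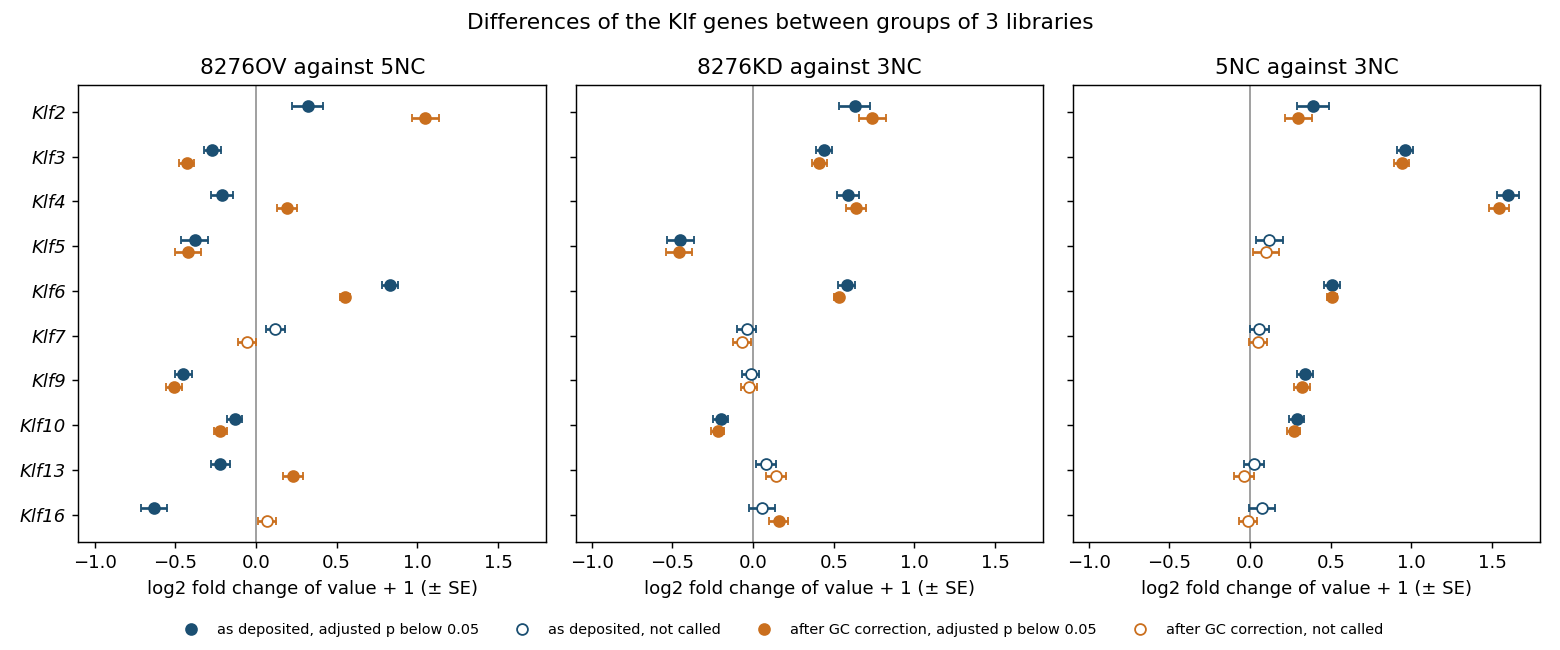
Log2 fold changes of value + 1, with limma standard errors, of the 10 Klf genes in 3 comparisons of 3 libraries each. Blue is as deposited and orange after GC correction, and filled symbols have an adjusted p below 0.05. Between 8276OV and 5NC the symbols of Klf4, Klf13 and Klf16 change side of 0, as does Klf7, which is called in neither, and those of Klf2, Klf3, Klf5, Klf6, Klf9 and Klf10 do not.

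With 8276KD set against 3NC, Klf2, Klf3, Klf4 and Klf6 were higher and Klf5 and Klf10 lower. The calls numbered 6 of 10, against 39.4% of all genes, 20.0% higher and 19.5% lower. The median was 0.07 over the members and -0.0048 over all genes, and 0.15 and 0.0038 after GC correction. Each of these 6 calls held after GC correction with the same sign, and the same 6 members had libraries that did not overlap between the groups, 4 above (24.6% of all genes) and 2 below (25.0%), against 49.6% in either direction. The fitted difference was over 0.4 for 5 of the 6, and for Klf10 it was 0.2. The share of all genes called after GC correction in this comparison is not given here.

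The control viruses differed from each other in 6 members. Klf2, Klf3, Klf4, Klf6, Klf9 and Klf10 were higher in 5NC than in 3NC and no member was called lower by limma, nor at an unadjusted p below 0.05 (0 of 10). Over all genes 56.5% were called, 30.6% higher and 25.9% lower, and the medians were 0.32 over the members and 0.022 over all genes. The same 6 members were called higher after GC correction and after quantile normalization. The medians after GC correction were 0.29 over the members and -0.0088 over all genes. Under quantile normalization they were 0.27 and -0.0085. The shares of all genes called in this comparison under these settings are not given here, so these counts have no background. The 5NC libraries were all above the 3NC libraries for 7 members, Klf5 included, against 37.6% of all genes, and all below for 0, against 31.9%, with 69.5% of all genes separated in either direction. For Klf3, Klf4 and Klf10 the difference between the control viruses was larger in size than that of either manipulation from its control.

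**Figure D4:**
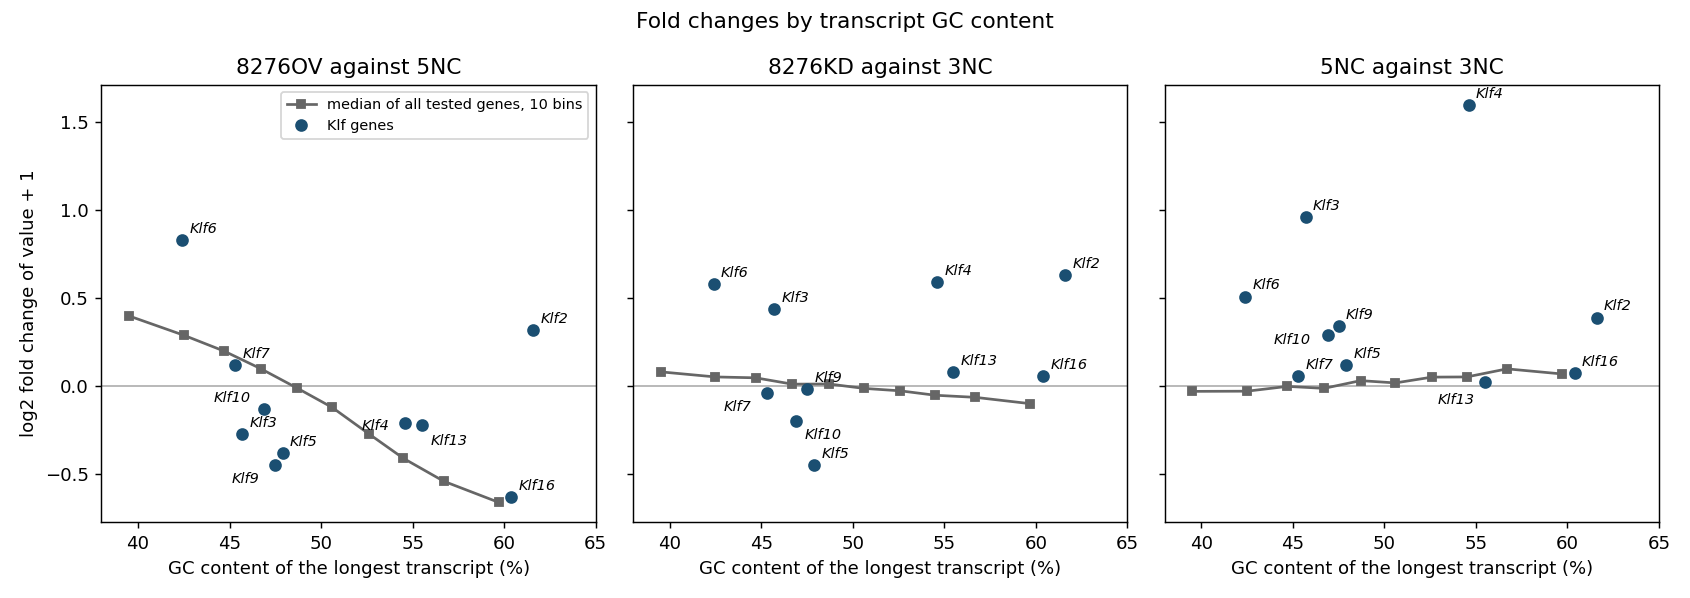
Log2 fold changes of the 10 Klf genes (blue points) by the GC content of the longest transcript, in 3 comparisons. Grey squares are medians of all tested genes in 10 bins of GC content. Between 8276OV and 5NC these medians run from 0.40 in the lowest bin to -0.66 in the highest, Klf16 lies near the line and Klf2 and Klf6 lie above it.

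The choice of control therefore mattered for the members. With 8276OV set against 3NC, 6 members were higher (33.5% of all genes) and 3 lower (41.7%), with 75.2% of genes called in all. Klf4 was then 3.26-fold higher (1.40 ± 0.0679; adjusted p = 1.25e-09), against 0.853 times the mean with 5NC, and Klf3 1.64-fold higher (0.69 ± 0.0509; adjusted p = 6.68e-08), against 0.825 times the mean with 5NC. Klf6 was 2.59-fold higher (1.34 ± 0.0502; adjusted p = 1.19e-10). After GC correction these were 1.74 for Klf4, 0.52 for Klf3 and 1.06 for Klf6, all called, and 5 members were higher (33.4% of all genes) and 2 lower (33.9%), with 67.3% of genes called. In this pair the Klf5 call was lost without the third 8276OV library (-0.22) and the Klf7 call without the first (0.15), and GC correction left Klf7 at -0.0053, Klf10 at 0.049 and Klf16 at 0.055, none called, with Klf13 called in the opposite direction at 0.19 and Klf2 at 1.35 in place of 0.71. Klf9, at -0.11 ± 0.0517 as deposited (adjusted p = 0.0746), was called at -0.19 after GC correction and at -0.13 without the second 8276OV library. Quantile normalization ended the calls of Klf5 (-0.12) and Klf13 (-0.077) in this pair. With 8276KD set against 5NC, 0 members were called higher by limma (24.7% of all genes; 1 at an unadjusted p below 0.05, Klf2) and 5 lower (30.5%), with 55.3% of genes called in all. The 5 were Klf3 (-0.52), Klf4 (-1.01), Klf5 (-0.58), Klf9 (-0.36) and Klf10 (-0.49), each called again after GC correction, which added Klf2, Klf13 and Klf16 as higher, 3 against 31.5% of all genes higher, 29.1% lower and 60.6% called. For Klf3 and Klf4, as deposited, the sign of both manipulations turned with the control. These comparisons share libraries with those above and are no separate evidence.

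In 8276OV as deposited, Klf2 and Klf6 were called higher than either control and Klf5, Klf13 and Klf16 lower than either. After GC correction Klf2 and Klf6, and also Klf4, were higher than either control, as was Klf13, and Klf5 and Klf9 were lower than either. In 8276KD, Klf5 and Klf10 were lower than either control, as deposited and after GC correction. After correction Klf2 (0.74 against 3NC and 0.44 against 5NC) and Klf16 (0.16 and 0.17) were also called higher in 8276KD than in either control. The share of all genes called against both controls was not computed. As deposited, 74.4% of genes were called in 8276OV against 5NC and 75.2% against 3NC, and 54.7% and 67.3% after GC correction. In 8276KD as deposited, 39.4% were called against 3NC and 55.3% against 5NC. Klf6 in 8276KD was 0.071 ± 0.0502 above 5NC, which did not pass (adjusted p = 0.248). With the manipulations set against each other, 5 members were higher in 8276OV than in 8276KD (29.9% of all genes) and 2 lower (38.3%), with 68.2% of genes called. Klf4 (0.80 ± 0.0679; adjusted p = 4.08e-07) and Klf6 (0.76 ± 0.0502; adjusted p = 5.02e-08) led the higher ones and Klf16 (-0.61) and Klf13 (-0.28) were the lower ones, both not called after GC correction (-0.10 and 0.046), nor were Klf3 (0.10) and Klf7 (0.061) among the higher ones, while Klf4 (1.09), Klf6 (0.53) and Klf10 (0.27) were. Klf2, at 0.079 ± 0.0977 as deposited, was called at 0.61 after GC correction, and Klf9, at -0.093 ± 0.0517, at -0.17. The corrected counts were 4 higher (28.9% of all genes) and 1 lower (30.6%), with 59.5% called. Klf5 differed by 0.19 ± 0.0823 (adjusted p = 0.0504), and was called without the third 8276OV library (0.23) or the second 8276KD library (0.29), with pseudocounts of 0.1 (0.22) and 0.5 (0.21) and under quantile normalization (0.29).

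The effects of overexpression and inhibition were compared as their difference, 8276OV minus 5NC less 8276KD minus 3NC. This equals 8276OV minus 8276KD less 5NC minus 3NC, so the gap between the control viruses enters it. The difference of effects was below 0 for 5 members (36.2% of all genes) and above 0 for 1 (24.5%), with 60.6% of genes called. For Klf3 the difference of effects was -0.71 ± 0.072 (adjusted p = 6.69e-06) and for Klf4 -0.80 ± 0.0961 (adjusted p = 2.08e-05), and both held after GC correction at -0.84 and -0.45. As deposited, both genes were higher in 8276OV than in 8276KD (0.25 and 0.80), by less than in 5NC against 3NC (0.96 and 1.60). Different action of the manipulations and the gap between the control viruses cannot be told apart in this difference. Klf9 had -0.44 ± 0.0731 (adjusted p = 0.000248), and -0.49 after correction. The other calls, Klf6 at 0.25, Klf13 at -0.30 and Klf16 at -0.68, were not called after GC correction (0.019, 0.086 and -0.089), which gave 1 member above 0 (24.8% of all genes) and 3 below (24.4%), with 49.2% called. Under quantile normalization Klf13 was not called (-0.20) and Klf7 was (0.28). For Klf5 the effects differed by 0.071 ± 0.116 (adjusted p = 0.613), which did not pass. For Klf2 the difference was -0.32 ± 0.138 (adjusted p = 0.0625), called without the first 8276KD library (-0.44) or the second 5NC library (-0.37), and after GC correction 0.32 and called in the opposite direction.

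Over all 6 pairs of groups, Klf3, Klf4 and Klf10 were called in each as deposited, 3 of 10 against 5.90% of all genes. After GC correction Klf2 and Klf4 were (2 of 10 against 7.19%), since Klf3 lost its call between 8276OV and 8276KD (0.10) and Klf10 between 8276OV and 3NC (0.049). Under quantile normalization Klf3 alone was (1 of 10 against 5.99%). The 3NC libraries were below the other 9 for 4 members, Klf2, Klf3, Klf4 and Klf6 (10.5% of all genes). The 5NC libraries were above the other 9 for 5, Klf3, Klf4, Klf5, Klf9 and Klf10 (17.1%). The 8276OV libraries were above the other 9 for Klf6 and Klf7, 2 of 10 (18.2%), and below them for Klf13 and Klf16, 2 of 10 (26.6%). Klf3 and Klf4 shared the order of groups (Pearson r = 0.96 over the 12 libraries), as did Klf2 and Klf6 (0.80), while Klf13 and Klf16 were low in 8276OV together (0.93), where Klf7 was high (-0.87 with Klf16). The 12 points share 4 treatments and, in 8276OV, a trend with GC content.

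Patterns were compared by Pearson r over the same 12 libraries, among 5435 genes whose group means span at least 0.5 on the log2 scale. The values were those deposited, without GC correction, so the trend in 8276OV enters each r. The genes named are the highest of those 5435, and their r values were not tested. Those with the highest r to Klf3 were the collagen gene Col3a1 (0.986), the glutamine transporter gene Slc1a5 (0.986) and Adcy1 (0.982). Closest to Klf4 were Lamp1 (0.995), F11r (0.995) and Pacsin2 (0.989). Closest to Klf6 were Ywhaq (0.992), Atf2 (0.992) and Nmi (0.991), and closest to Klf2 were Hmgn5 (0.932), Ly6f (0.925) and Creb3 (0.923). Klf5 was followed most closely by Angptl6 (0.975), Wars (0.972) and Brat1 (0.964), and Klf16 by Cdk5rap3 (0.988), Id1 (0.986) and Tsfm (0.985). Lamp1 means, for example, were 358 FPKM in 8276OV, 259 in 8276KD, 408 in 5NC and 203 in 3NC, in the order of Klf4.

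Markers of surface epithelium and mesothelium also differed between groups. Their summed level, over 6 of 6 markers, was 746.2 to 879 FPKM in 8276OV, 831 to 966.8 in 8276KD, 1156.6 to 1175 in 5NC and 629.6 to 645 in 3NC. Upk3b, a uroplakin gene of mesothelium, averaged 493 ± 40.2 FPKM in 8276OV, 387 ± 22.9 in 8276KD, 791 ± 11.4 in 5NC and 240 ± 6.09 in 3NC (SD, n = 3). Upk3b and Lrrn4, 2 of the 6, had the group order of Klf3 and Klf4, and the other 4 did not: Krt19 averaged 193 FPKM in 8276OV, 333 in 8276KD, 212 in 5NC and 250 in 3NC, and was lower in 5NC than in 3NC (-0.24 ± 0.0727; adjusted p = 0.0125). With 8276OV set against 5NC, 0 markers were called higher by limma (0 at an unadjusted p below 0.05) and 4 lower. Of all genes, 30.3% were higher and 44.1% lower. After GC correction 3 markers were higher and 2 lower, where 27.8% of all genes were higher and 26.9% lower. In 8276KD against 3NC 5 were higher, and 6 after correction, and between 5NC and 3NC 3 were higher and 1 lower, and 3 and 2 after correction. Markers of Leydig cells summed to at most 2 FPKM, endothelial markers to at most 1.2 FPKM and macrophage markers to at most 5.7 FPKM in any library. Sertoli cell markers summed to between 57.6 and 74.1 FPKM, mostly from Wt1, at a mean of 53.3 FPKM over the 12 libraries. Clu averaged 4.79, Gata4 4.69 and Rhox5 1.47 FPKM, while Sox9 (0.00333) and Amh (0.055) were near 0. Peritubular myoid markers summed to between 66.4 and 88.2 FPKM, mostly from Tagln, at a mean of 52.2 FPKM. Acta2 averaged 12.7, Des 8.18 and Cnn1 3.85 FPKM, and Myh11 0.0433 FPKM. The part of cell state or composition in the Klf differences was not tested.

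Of the 16 other Klf and Sp genes in the table, 9 were below 1 FPKM in all 12 libraries and 7 were tested. Sp1 and Sp3, which bind the same GC boxes, Sp2, and Klf11, a Sin3A-binding relative of Klf10, were the ones with levels comparable to the members. With 8276OV set against 5NC, 3 were higher (30.3% of all genes) and 1 lower (44.1%). Among them were Sp1 (0.27 ± 0.0597; adjusted p = 0.000955) and Sp2 (-0.41 ± 0.0914; adjusted p = 0.00107), and neither was called after GC correction (0.029 and 0.052). After correction 1 of the 7 was higher (27.8% of all genes) and 1 lower (26.9%). Quantile normalization gave 5 higher (39.0%) and 1 lower (35.2%). With 8276KD set against 3NC, 0 of the 7 were called by limma (39.4% of all genes), and 0 at an unadjusted p below 0.05. After GC correction Sp1 was called lower there (-0.14). Between 5NC and 3NC, 2 were lower, and 3 after GC correction, among them Klf11 at 5.74 ± 0.307 FPKM in 5NC and 8.33 ± 0.708 in 3NC (-0.47 ± 0.0668; adjusted p = 5.08e-05), opposite in sign to Klf10. After GC correction Klf11 had -0.50.

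**Figure D5:**
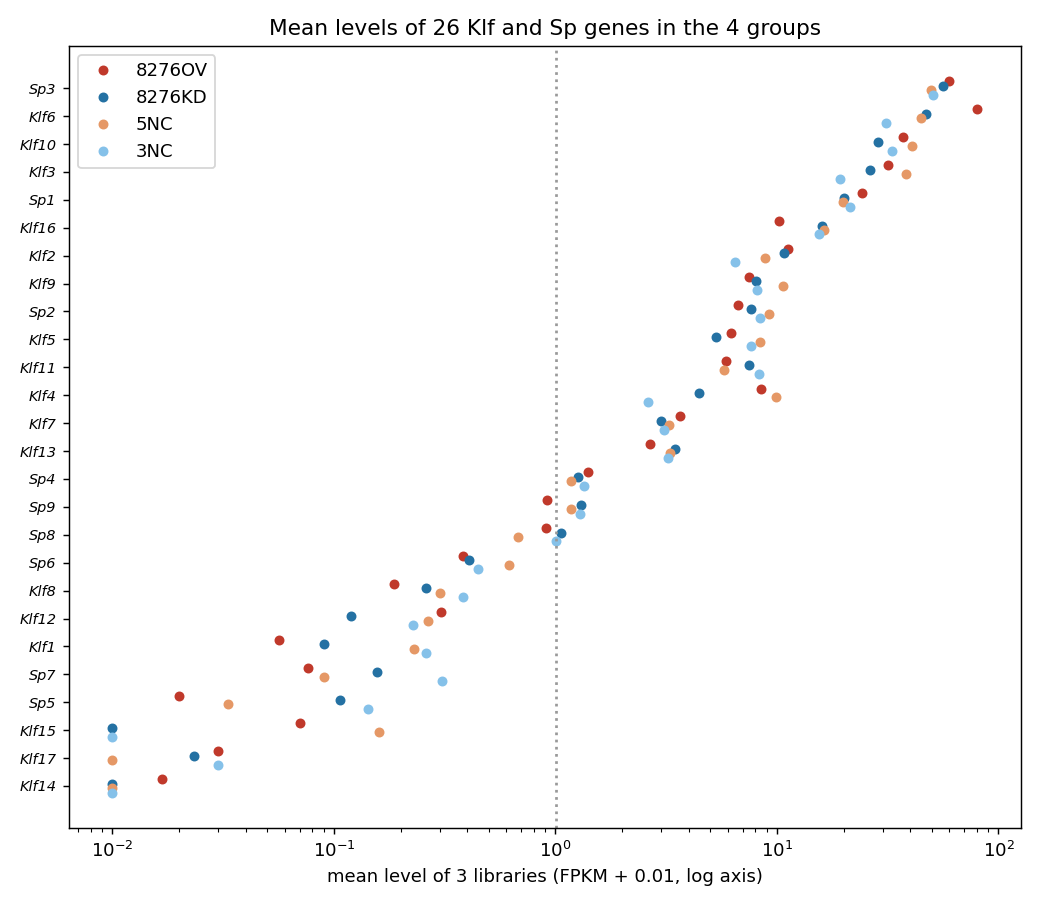
Mean levels of 3 libraries (FPKM + 0.01, log axis) of 26 Klf and Sp genes in 8276OV, 8276KD, 5NC and 3NC, ordered by mean. The dotted line marks 1 FPKM. The 10 members all lie to its right, and 9 of the other 16 genes lie to its left in every library.

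Upstream of the Klf genes, 18 genes for mitogen, serum, transforming growth factor beta and hormone signalling were tested. With 8276OV set against 5NC, 4 rose and 10 fell (median -0.23), where 30.3% of all genes rose and 44.1% fell (median -0.088). After GC correction 2 rose (27.8% of all genes) and 7 fell (26.9%), with a median of -0.03. Under quantile normalization 5 rose (39.0% of all genes) and 9 fell (35.2%), with a median of -0.13. Thra, a thyroid hormone receptor that regulates Klf9 in brain, was lower (-1.01 ± 0.0766; adjusted p = 2.44e-07; -0.34 after correction), as was Map2k5, a kinase of the pathway that induces Klf2 in endothelium (-0.63 ± 0.0705; adjusted p = 3.72e-06; -0.28 after correction). Srf (-0.81) and Mef2d (-0.45), transcription factors of immediate early genes, were called as deposited but not after GC correction (0.0067 and -0.024). With 8276KD set against 3NC, 1 rose and 4 fell (median -0.087), where 20.0% of all genes rose and 19.5% fell. Stat3, which acts upstream of Klf4 in embryonic stem cells, was lower by -0.43 ± 0.05 (adjusted p = 2.13e-05), and Srf (-0.40), Elk4 (-0.30) and Mef2d (-0.24) were lower too. Klf4 was higher in the same comparison, and a link between Stat3 and Klf4 was not tested. Between the control viruses 8 were higher and 6 lower in 5NC, where 30.6% of all genes were higher and 25.9% lower, among them Mef2a (0.69 ± 0.0662; adjusted p = 1.26e-06) and the receptor gene Tgfbr2 (0.56), with Mef2c (-0.56) and Stat3 (-0.32) lower.

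Among 15 genes for partners and ubiquitin ligases of Klf proteins, 2 were higher and 5 lower in 8276OV against 5NC (median -0.061; all genes 30.3% higher and 44.1% lower). After GC correction 4 were higher (27.8% of all genes) and 5 lower (26.9%), with a median of 0.066. Under quantile normalization 5 were higher (39.0% of all genes) and 4 lower (35.2%), with a median of 0.019. Ctbp1, a gene for the CtBP corepressor, averaged 52.6 ± 4.05 FPKM in 8276OV, 68.6 ± 5.76 in 8276KD, 91.6 ± 3.34 in 5NC and 57.8 ± 1.06 in 3NC (SD, n = 3). Its log2 difference was -0.79 ± 0.0637 in 8276OV against 5NC (adjusted p = 3.35e-07; -0.30 after GC correction and called), 0.24 in 8276KD against 3NC and 0.65 in 5NC against 3NC, the same signs as Klf3. Ctbp2, the other CtBP gene, was called at -0.14 in 8276OV against 5NC, and in the opposite direction after GC correction (0.28). Its differences in 8276KD against 3NC (0.11) and in 5NC against 3NC (0.10) were not called as deposited. After GC correction the first of these was called at 0.16 and the second was not (0.039). Ep300 (-0.35, and -0.19 after correction) was lower in 8276OV than in 5NC. Sin3b (-0.42) and the ligase gene Smurf1 (-0.34) were called lower as deposited, while GC correction gave 0.068, not called, and 0.11, called in the opposite direction. With 8276KD set against 3NC, 6 were higher and 1 lower (median 0.11; all genes 20.0% higher and 19.5% lower), led by the ligase subunit genes Fbxw7 (0.47 ± 0.0677; adjusted p = 0.000131) and Siah1a (0.31), with the acetyltransferase gene Kat2b at 0.24. Fbxw7 protein targets Klf2 and Klf5 for degradation. Between the control viruses, 7 were higher and 3 lower in 5NC (median 0.10; all genes 30.6% and 25.9%), including Smurf1 (0.49), Siah1a (0.34) and Hdac2 (0.32).

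Of 12 tested genes reported as Klf targets, 1 was higher and 8 lower in 8276OV against 5NC (median -0.36; all genes 30.3% higher, 44.1% lower and 74.4% called). After GC correction 2 were higher (27.8% of all genes) and 5 lower (26.9%), with a median of 0.04. Under quantile normalization 1 was higher (39.0% of all genes) and 7 lower (35.2%), with a median of -0.23. Cdkn1c, a cell cycle inhibitor gene, was lower by -1.17 ± 0.109 (adjusted p = 9.3e-07; -0.52 after correction), as was the growth factor gene Pdgfa at -1.14 ± 0.107 (adjusted p = 1.01e-06; -0.90 after correction). Lgals3 had -0.56, and -0.13 after correction. Ccnb1, a mitotic cyclin gene that KLF4 represses in human cells, was higher (0.47 ± 0.0475; adjusted p = 1.77e-06; 0.25 after correction). With 8276KD set against 3NC, 1 was higher and 7 lower (median -0.26; all genes 20.0% and 19.5%). The chemokine gene Ccl5, a target of KLF13 in human T lymphocytes, averaged 18 ± 0.265 FPKM in 8276KD and 39.5 ± 1.39 in 3NC (-1.09 ± 0.0683; adjusted p = 9.69e-08), while Klf13 itself did not pass. Cdkn1a, the p21 gene that KLF4 and KLF6 activate in human cells, was lower as well (-0.62 ± 0.083; adjusted p = 6.6e-05), at 45.7 ± 1.74 FPKM in 8276KD and 71.0 ± 1.18 in 3NC, where Klf4 and Klf6 were higher in 8276KD. Ccnd1 (-0.31) and Lgals3 (-0.40) were lower also. Between the control viruses, 3 were higher and 5 lower in 5NC (median -0.12; all genes 30.6% and 25.9%). Cdkn1a was lower in 5NC by -1.71 ± 0.083 (adjusted p = 1.53e-09), Lgals3 by -0.97 and Ccnd1 by -0.77, and Cdkn1b was higher by 0.54. Action of the Klf proteins on these reported targets was not tested.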

How the data were processed

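The authors deposited a single expression table: 17576 genes, NCBI identifiers, symbols and 12 library columns. The deposited values were taken as FPKM, which scales fragments by transcript length and library size. The unit is named nowhere and TPM is possible; value times length had a more even library sum (coefficient of variation 1.09%) than the values alone (1.62%). Per the submitters' processing notes the genome build was mm10, and aligner, counter and strand handling are not named in the sources used here. RefSeq symbols replaced 26 damaged or duplicate ones.

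Genes at 1 FPKM or more in at least 3 of 12 libraries (11360) were tested on log2(value + 1), which understates changes of low genes, with limma 3.58.1 in R 4.3.3. The fit had a mean per group over all 12 libraries (eBayes with trend and robust), and two-sided p-values were adjusted by Benjamini-Hochberg over all tested genes at 0.05. An exact permutation test of 3 against 3 cannot go below p = 0.1. Separate cultures are not stated, and the p-values cover only the spread between libraries, which may be technical. Depth was implied roughly from the lowest values of 73 to 107 short, rarely detected genes per library. GC correction removed, per library, a natural spline (5 degrees of freedom) of the deviation from the gene mean on transcript GC content (longest transcript in GENCODE M21), known for 11248 tested genes (99%). Other alternatives were pseudocounts 0.1 and 0.5, no filter, quantile normalization, a replicate block, only the groups compared, and leaving out each library. The procedure was tested on simulated data.

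The members and gene lists were chosen with earlier results of these data known. All members were named. From each list, at most 4 genes per comparison were named, those with the smallest p and a mean of at least 1, and Ctbp2 was added beside Ctbp1. Genes of like pattern were the 3 with the highest Pearson r for members whose group means span at least 0.5 on the log2 scale, clone names left out.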

Additional observations from a re-analysis of the deposited data

How the results depend on the processing

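Counts of called Klf genes, higher and lower together, stayed within 1.5 times of the values above under every alternative run, except 8276KD against 5NC, with 8 in place of 5 after GC correction, and again with GC correction and the replicate block. These counts do not follow direction. After GC correction, 8276OV against 5NC had 4 higher and 4 lower in place of 2 and 7. The difference of effects had 1 above 0 and 3 below in place of 1 and 5. Replicate numbers did not pair the libraries in the manipulated comparisons, where residuals of same-numbered libraries correlated at -0.183 to -0.00483. Between 5NC and 3NC they correlated weakly, at 0.0413 to 0.0883. Every library correlated best with its own number between 5NC and 3NC (6 of 6), and in 0 of 6 cases in each manipulated comparison. With the replicate block the counts were 9 for 8276OV against 5NC, 6 for 8276KD against 3NC, 6 for 5NC against 3NC, 9 for 8276OV against 3NC, 6 for 8276KD against 5NC, 8 for 8276OV against 8276KD and 6 for the difference of effects. The block added the calls of Klf2 in 8276KD against 5NC (0.24) and Klf5 in 8276OV against 8276KD (0.19) and changed no other member's call. Leaving out a library gave 7 to 9, 6 to 6, 6 to 6, 8 to 10, 5 to 6, 7 to 8 and 6 to 7 in the same order. GC correction, with or without the block, turned these log2 differences: 8276OV against 5NC, Klf4 0.19, Klf7 -0.053, Klf13 0.23 and Klf16 0.068; 5NC against 3NC, Klf13 -0.04 and Klf16 -0.013; 8276OV against 3NC, Klf7 -0.0053, Klf13 0.19 and Klf16 0.055; 8276KD against 5NC, Klf16 0.17; 8276OV against 8276KD, Klf13 0.046; difference of effects, Klf2 0.32, Klf10 -0.0067 and Klf13 0.086. Quantile normalization turned Klf7 (0.0021) and Klf9 (0.017) in 8276KD against 3NC, Klf13 (-0.0089) in 5NC against 3NC, Klf9 (0.024) in 8276OV against 3NC, Klf16 (0.04) in 8276KD against 5NC and Klf9 (0.0071) in 8276OV against 8276KD. Leaving out a library turned Klf9 in 8276KD against 3NC (range -0.031 to 0.013), Klf16 in 8276KD against 5NC (-0.067 to 0.037) and Klf2 in 8276OV against 8276KD (-0.048 to 0.16). Why they turned was not tested. Pseudocounts and filter turned no member. With 3 libraries a group and no counts, the lowest implied depth behind a member is that of Klf4 (86 fragments) and the largest standard error between a pair of groups that of Klf2 (0.0977).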

Other observations

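Of 7 genes of the pluripotency circuit in the table, Nanog was the only 1 that passed the filter, and the other 6 were below 1 FPKM in all 12 libraries. Pou5f1, which acts with Klf4 in reprogramming, was listed at 0 in 11 of 12 libraries. Nanog averaged 2.44 ± 0.102 FPKM in 8276OV, 1.46 ± 0.269 in 8276KD, 1.78 ± 0.176 in 5NC and 1.29 ± 0.148 in 3NC (SD, n = 3). It was higher in 8276OV than in 5NC as deposited (0.31 ± 0.0892; limma adjusted p = 0.00648) but not called after GC correction (0.16). It was higher in 5NC than in 3NC by 0.28, and by 0.27 after correction. Mouse Nanog has retrocopies, and how their fragments were assigned is not given in the sources used here.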
